A study of Mus musculus with 24 samples.

Results

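The genes followed here are the adult globins and a set of red-cell precursor genes. They are the alpha globins Hba-a1 and Hba-a2, the beta globins Hbb-bs and Hbb-bt, and Alas2, Slc4a1, Epb42 and Gata1. The members were chosen by name, as the rows of the lung and retina count tables whose Ensembl identifier carries one of 9 listed symbols, and 8 were matched in both tables, among 36109 genes listed for the lung and 36595 for the retina. Ahsp was not analysed here. All 8 passed the filter on low counts in the lung, whereas 6 passed it in the retina, where Slc4a1 and Gata1 were too low to be tested.

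RNA from whole lungs and whole retinas of neonatal C57/B6 mice was sequenced, 12 libraries per tissue and 3 mice per group. WT and GSDMD-KO mice, littermates from matings of heterozygotes, breathed room air with 21% oxygen, in groups named WT-RA and KO-RA, or were raised in hyperoxia, in groups named WT-O2 and KO-O2. For the lung, a model of bronchopulmonary dysplasia, hyperoxia was 85% oxygen from P1 to P14 and tissue was taken at P15. For the retina, a model of retinopathy, it was 75% oxygen from P7 to P12 followed by recovery in room air, and tissue was taken at P18. Thus the lungs were taken at the end of hyperoxia, and the retinas days after it. The GSDMD-KO is a global knockout made with a CRISPR deletion of 38 bp in exon 5 of Gsdmd, the gene of the pore-forming protein of pyroptosis, so every cell of the animal carries it, red-cell precursors included.

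Hemoglobin is a tetramer of alpha and beta globin chains, each holding a heme. Erythroblasts in the bone marrow, and in newborn mice also in the spleen and liver, make the transcripts and then lose the nucleus, after which reticulocytes still carry globin and Alas2 RNA into the blood, and mature red cells lose it. Lung and retina are not main sites of red-cell formation in the young mouse. Red-cell transcripts in whole tissue can come with the blood in its vessels, and their source was not tested here. In whole-tissue RNA, fewer red cells and less RNA per red cell cannot be told apart. Erythropoietin, which is made more when oxygen is short, drives the formation of red cells. The question the design puts to these genes is whether hyperoxia changed them in each tissue, and whether the loss of gasdermin D altered that change.

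The 2 alpha globin genes lie near each other on chromosome 11 (GRCm38, Hba-a1, ENSMUSG00000069919, chr11:32283511-32284465, and Hba-a2, ENSMUSG00000069917, chr11:32296489-32297298, both on the plus strand). The beta globin genes lie on the minus strand of chromosome 7 (Hbb-bs, ENSMUSG00000052305, chr7:103826534-103828096, and Hbb-bt, ENSMUSG00000073940, chr7:103812524-103813996). Each pair is close to identical, so how reads were divided within a pair rests on few bases. The coding sequences of Hba-a1 and Hba-a2 are 429 bases each and differ at 1 position (C381T, counted from the A of the start codon, Hba-a1 first). The coding stretch around it, bases 361 to 401 with the differing base in capitals, is:
Hba-a1: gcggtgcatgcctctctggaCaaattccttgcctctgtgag
Hba-a2: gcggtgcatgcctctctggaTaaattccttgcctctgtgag
The coding sequences of Hbb-bs and Hbb-bt are 444 bases each and also differ at 1 position (C417T, Hbb-bs first), shown in the same way over bases 397 to 437:
Hbb-bs: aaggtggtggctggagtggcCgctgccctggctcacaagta
Hbb-bt: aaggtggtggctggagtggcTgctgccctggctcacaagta
Of the 31-base words in the annotated Hba-a1 transcript, 71.3% also occurred in that of Hba-a2, and of those in Hbb-bs 66.9% also occurred in Hbb-bt, while Hba-a1 and Hbb-bs shared 0.0%. The remaining words, mostly outside the coding sequence, are what sets the copies of a pair apart. For this reason the sum of each pair is given beside the single genes where it matters.

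The promoters of an alpha globin, a beta globin, Alas2 and Gata1 are shown for how these genes stood in KO-O2 replicates 1 and 2 of the lung. There Gata1 was below every KO-RA lung, and the globins and Alas2 were not. None of these genes differed between KO-O2 and KO-RA lungs by the thresholds used below. Sequences are those of RefSeq (GRCm38.p6), read on the gene's strand from 150 bases before the start, and stop where an annotated exon of the gene begins. Capitals mark GATAA, a form of the motif that GATA factors bind, the box CACCC, the box CCAAT, and the start-site box TATAA, each on either strand:
Hba-a2 (chr11:32296342-32296488, plus strand): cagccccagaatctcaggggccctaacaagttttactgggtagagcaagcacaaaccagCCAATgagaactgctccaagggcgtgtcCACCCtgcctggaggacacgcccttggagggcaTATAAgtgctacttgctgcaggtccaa
Hbb-bt (chr7:103813997-103814073, minus strand): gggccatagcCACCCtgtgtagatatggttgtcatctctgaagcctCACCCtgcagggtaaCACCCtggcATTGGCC
Alas2 (chrX:150547267-150547374, plus strand): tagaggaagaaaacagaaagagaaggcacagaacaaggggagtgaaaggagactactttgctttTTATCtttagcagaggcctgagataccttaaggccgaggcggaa
Gata1 (chrX:7967911-7968060, minus strand): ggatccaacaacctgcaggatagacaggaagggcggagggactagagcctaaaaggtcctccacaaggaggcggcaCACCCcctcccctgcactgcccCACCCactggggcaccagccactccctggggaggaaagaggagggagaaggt
Over the full 150 bases, TATAA was present in all 4 globin promoters, against 14.2% of 32851 mouse promoters of the same length. The same held for CCAAT, against 24.5%, and for CACCC, against 37.4%. The motif GATAA was present once in Alas2 and in 13.3% of all promoters, and these letters were not in this window of the globins, Epb42 or Gata1. CACCC was also present 3 times in Alas2, end to end on the reverse strand and nearer to the start than the stretch printed, and 2 times in Gata1. No match overlapped another, and the last 2 capitals of Hbb-bt open a CCAAT that runs past the stretch printed. These matches are descriptions of the letters and were not tested for function.

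Libraries held 28763661 to 29604254 counts in the lung and 24863257 to 29093035 in the retina. Levels are given as CPM, counts scaled per library with TMM factors to the usual base of CPM, in the order of replicates 1, 2 and 3 of a group. Markers fitted the labelled tissues: 8 lung epithelial markers summed to 20620 to 35643 CPM in the lungs and 43.9 to 60.3 CPM in the retinas, and 8 photoreceptor markers summed to 51845 to 76730 CPM in the retinas and at most 3.44 CPM in the lungs. Counts for Gsdmd, which are of the whole gene and do not test the deletion itself, were lower in all 6 KO lungs (11.7 to 24.8 CPM) than in all 6 WT lungs (32.2 to 42.3 CPM). In the retina they overlapped, at 0.400 to 5.69 CPM in WT and 0.647 to 2.95 CPM in KO. There, the library labelled WT-RA replicate 2 was below every KO retina and the library labelled KO-O2 replicate 3 was above the lowest retina of both WT groups, and results are also given without these 2. Among the 3 lungs of each group, Y-linked transcripts marked 0 for WT-RA, 1 for WT-O2, 2 for KO-RA and 3 for KO-O2, and among the 3 retinas 3, 1, 3 and 1 in the same order. In the lung 2 libraries stood apart in transcripts of other cells. KO-O2 replicate 1 held liver transcripts, with Alb at 78.1 CPM against at most 2.20 CPM in the other lungs, and KO-RA replicate 1 held Mpo, a gene of neutrophil precursors, at 35.8 CPM against at most 2.83 CPM elsewhere. The labels number the mice of KO-O2 replicates 1 and 2 of the lung as 61 and 97. Of the other 10 lungs, those of WT come from mice 398 to 406 and those of KO from mice 490 to 497. The KO retinas come from mice 301 to 310 and the WT retinas from mice 345 to 383. Genotype thus ran with the number in both tissues, so an effect of either cannot be told from that of the other. Within WT lungs and within each genotype of the retina, the exposures also had separate runs of numbers. The labels do not say what the numbers stand for, and their part in the results was not tested.

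Hyperoxia lowered every member in WT lungs. Hba-a1 stood at 4706, 4824 and 5662 CPM in WT-RA and at 978, 1346 and 986 CPM in WT-O2. Hba-a2 stood at 5668, 5469 and 6663 CPM in WT-RA and 1114, 1570 and 1196 CPM in WT-O2. For both, the lowest room-air lung was far above the highest hyperoxic lung. Hbb-bs, the more abundant beta globin, went from 4659, 4895 and 5062 CPM to 708, 1099 and 832 CPM. Hbb-bt went from 476, 512 and 498 CPM to 76, 92.5 and 83.2 CPM. The groups did not overlap for any of the 4 globins. Log2 fold changes are given ± their standard error, with 3 mice per group. In edgeR's quasi-likelihood test the log2 fold change of WT-O2 against WT-RA was -2.20 ± 0.55 (adjusted p = 0.011) for Hba-a1 and -2.20 ± 0.54 (adjusted p = 0.01) for Hba-a2. For the beta globins it was -2.47 ± 0.54 (adjusted p = 0.0055) for Hbb-bs and -2.56 ± 0.51 (adjusted p = 0.0036) for Hbb-bt, falls of 5.54-fold and 5.9-fold. Summed as pairs, the alpha globins fell by 4.59-fold and the beta globins by 5.57-fold. The 4 globins together took 1.54% to 1.78% of all counts in WT-RA lungs and 0.287% to 0.408% in WT-O2 lungs.

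**Figure D1:**
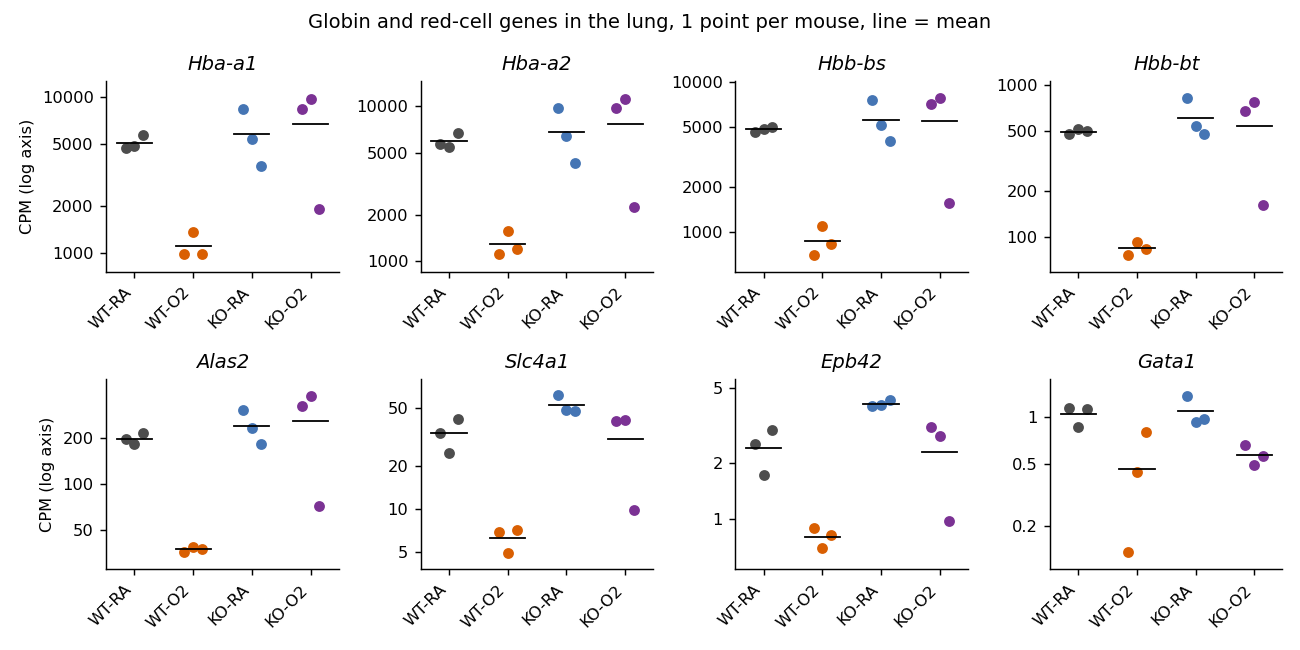
Levels of the 8 genes in the lung, in CPM on a log axis that differs between panels, with 1 point per mouse in the order of replicates and a line at the mean of each group of 3. In WT-O2 every gene lies below WT-RA. In KO-O2 the first and second mice are at the level of the KO-RA mice for the globins and Alas2, or above it, and the third lies between the KO-RA and the WT-O2 mice.

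The precursor genes fell with the globins. Alas2 (ENSMUSG00000025270, chrX:150547375-150570638), which makes the first enzyme of heme synthesis in erythroid cells, went from 195, 183 and 215 CPM in WT-RA to 35.6, 38.6 and 37.5 CPM in WT-O2, with a log2 fold change of -2.41 ± 0.52 (adjusted p = 0.0058). The 3 hyperoxic lungs lay within a few CPM of each other. Slc4a1 (ENSMUSG00000006574, chr11:102348824-102366203), the anion exchanger band 3 of the red-cell membrane, went from 33.6, 24.4 and 42.3 CPM to 6.92, 4.96 and 7.13 CPM, a log2 fold change of -2.40 ± 0.50 (adjusted p = 0.0048). Epb42 (ENSMUSG00000023216, chr2:121017891-121037072), the membrane protein 4.2 that binds band 3, went from 2.51, 1.73 and 2.96 CPM to 0.897, 0.705 and 0.822 CPM, a log2 fold change of -1.58 ± 0.36 (adjusted p = 0.0028). The groups were apart for these 3 genes as well. Gata1 (ENSMUSG00000031162, chrX:7959260-7978071), the transcription factor of erythroid, megakaryocyte and mast cell lineages, was low in all lungs. It stood at 1.15, 0.875 and 1.14 CPM in WT-RA and 0.136, 0.447 and 0.811 CPM in WT-O2, a log2 fold change of -1.17 ± 0.43 (adjusted p = 0.04). Relative to their mean, its 3 hyperoxic lungs spread more widely than those of any other member, and without WT-O2 replicate 1 its log2 fold change was -0.74 and it was no longer called, while without WT-O2 replicate 3 it was -1.83.

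In WT-O2 lungs, 8 of 8 members were called lower than in WT-RA, which required that the adjusted p was under 0.1, the raw p under 0.05 and the change at least 2-fold, where 11.6% of all 16819 genes tested were called in either direction. The groups of 3 did not overlap for 8 of 8 members, against 49.8% of all genes tested. The median log2 fold change was -2.33 over the 4 globins and -1.99 over the 4 precursor genes, with -0.01 over all genes.

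In GSDMD-KO lungs the group means of the globins did not show such a fall, and the 3 KO-O2 mice divided. Hba-a1 stood at 8348, 5364 and 3614 CPM in KO-RA and 8340, 9739 and 1910 CPM in KO-O2. Hba-a2 stood at 9660, 6380 and 4305 CPM in KO-RA and 9680, 11151 and 2247 CPM in KO-O2. KO-O2 replicates 1 and 2 were level with the highest KO-RA lung or above it, and replicate 3 was below the lowest. Hbb-bs stood at 7641, 5195 and 4038 CPM and 7217, 7843 and 1567 CPM in the same groups. Hbb-bt stood at 822, 536 and 474 CPM and 681, 772 and 162 CPM. Alas2 stood at 305, 232 and 181 CPM in KO-RA and 325, 376 and 71.7 CPM in KO-O2. For the beta globins the same 2 mice lay within the range of KO-RA or just above it, and for Alas2 they lay above it. The log2 fold change of KO-O2 against KO-RA was 0.21 ± 0.53 (adjusted p = 0.79) for Hba-a1 and -0.02 ± 0.51 (adjusted p = 0.98) for Hbb-bs. It was 0.11 ± 0.49 (adjusted p = 0.88) for Alas2. The 4 globins together took 1.27% to 2.69% of all counts in KO-RA lungs and 2.53%, 2.82% and 0.601% in KO-O2 lungs.

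The membrane genes and Gata1 were lower in every KO-O2 lung than in every KO-RA lung, as were 26% of all genes tested. Slc4a1 stood at 61.4, 48.6 and 47.8 CPM in KO-RA and 40.8, 41.1 and 9.87 CPM in KO-O2. Epb42 stood at 3.98, 4.07 and 4.29 CPM and 3.09, 2.78 and 0.985 CPM. Gata1 stood at 1.37, 0.931 and 0.983 CPM and 0.665, 0.496 and 0.569 CPM. The 2 lungs with high globin were thus below KO-RA for these 3 genes. The log2 fold change was -0.78 ± 0.45 (adjusted p = 0.21) for Slc4a1, -0.85 ± 0.32 (adjusted p = 0.047) for Epb42 and -0.92 ± 0.42 (adjusted p = 0.097) for Gata1. Epb42 and Gata1 passed the adjusted p and missed the fold threshold of 2, and Slc4a1 passed neither.

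Thus 0 of 8 members were called between KO-O2 and KO-RA by edgeR, and 0 by DESeq2, where 10.6% of all genes were called by edgeR. Epb42 and Gata1, 2 of 8, had a raw p under 0.05, against 47.4% of all genes. The groups did not overlap for 3 of 8 members, against 52.3% of all genes. The count depended on which mice entered. Without KO-O2 replicates 1 and 2 together, with the one remaining KO-O2 lung assumed to vary like the other groups, 7 of 8 members were called lower, all except Gata1, and the log2 fold change of Hba-a1 was -1.59. Without KO-O2 replicate 1 or 2 alone, 1 member was called, Epb42. Without the 2 libraries that held liver or neutrophil-precursor transcripts 1 was called, Epb42 at -1.16, and with a term for Y-linked transcripts 1 was called, Gata1 at -1.05.

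**Figure D2:**
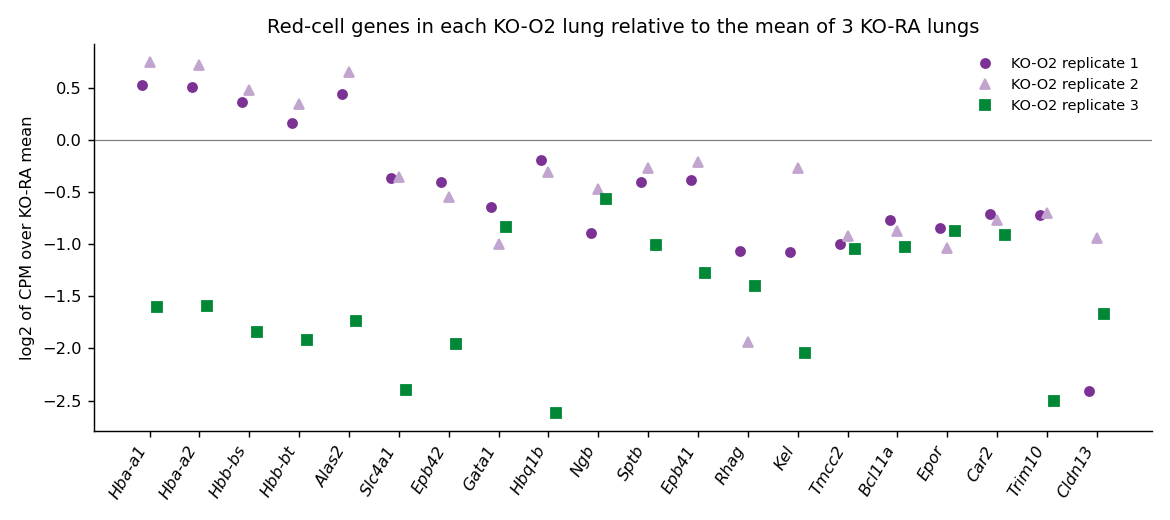
Each KO-O2 lung relative to the KO-RA mean, as the log2 ratio of CPM with 0.1 CPM added to both, for the 8 members and 12 further genes of the pathway lists that were called lower in WT-O2. The further genes include Ngb, from the list of other globins, and Car2, which other lung cells also make. The globins and Alas2 of replicates 1 and 2 lie above 0, while their Slc4a1, Epb42, Gata1 and all 12 further genes lie below it. Replicate 3 lies below 0 for all 20 genes.

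Relative to the KO-RA mean, Hba-a1 stood at 144%, 169% and 33.1% in KO-O2 replicates 1, 2 and 3, and Alas2 at 136% and 157% in replicates 1 and 2. Slc4a1 stood at 77.6%, 78.1% and 18.8% and Epb42 at 75.1%, 67.6% and 23.9%. In the first and second mice globin and Alas2 were thus above the mean of KO-RA while the membrane genes were below it, and in the third mouse all were below. Of the 20 genes plotted, of which those beside the members were chosen by their calls in WT, replicate 1 was below all KO-RA lungs for 14, replicate 2 for 13 and replicate 3 for 20, and of the 12 that are not members for 11, 10 and 12. Over all genes tested, replicate 1 was below all KO-RA lungs for 37.9%, replicate 2 for 37.7% and replicate 3 for 36.6%. Since the 12 were chosen for being lower in hyperoxic WT lungs, nothing is read from their count.

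Other genes of the red-cell program were read from lists of the pathway. Of 13 tested genes of the red-cell membrane and cytoskeleton beside the members, 5 were called lower and 1 higher in WT-O2, with a median log2 fold change of -0.89 against -0.01 over all genes. Sptb, the beta chain of red-cell spectrin, fell with a log2 fold change of -1.05 ± 0.19 (adjusted p = 0.00058), and Kel, a blood group antigen, fell with -2.56 ± 0.58 (adjusted p = 0.0028). Epb41, protein 4.1, had -1.20 ± 0.22 (adjusted p = 0.0011), and Ank1, the ankyrin that joins band 3 to spectrin, had -0.93 ± 0.17 (adjusted p = 0.00068), past the adjusted p and just short of the fold threshold. Gypc, glycophorin C, had -0.37 ± 0.16 (adjusted p = 0.089). The other genes called lower were Rhag, whose call was lost without WT-RA replicate 3, and Tmcc2, and the gene called higher was Add2, an adducin that other cells also express. Genes of the lists below and here that stand outside the first 4 tested of each list were chosen for naming after their values were seen.

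In KO lungs 2 genes of the membrane list were called lower and 1 higher, Add2. Rhag, the Rh-associated glycoprotein, went from 0.809, 0.676 and 0.656 CPM to 0.286, 0.111 and 0.207 CPM, with -1.85 ± 0.47 (adjusted p = 0.0059), and Kel had -1.10 ± 0.48 (adjusted p = 0.085). Rhag was called in all 12 fits that left out 1 lung, and Kel in 7 of 12, with a log2 fold change of -0.70 without KO-O2 replicate 3. For Sptb the value was -0.53 ± 0.18 (adjusted p = 0.032), and Epb41 had -0.56 ± 0.21 (adjusted p = 0.059).

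Of 11 transcription factors and regulators beside Gata1, 2 were called lower in WT-O2 (Bcl11a and Epor, the erythropoietin receptor) and 1 in KO-O2, where DESeq2 called 0. Unlike the globins, Bcl11a and Epor did not divide the KO-O2 lungs. Relative to the KO-RA mean, replicates 1, 2 and 3 stood at 58%, 54% and 48.3% for Bcl11a and 54.7%, 47.8% and 54% for Epor. The gene called in KO-O2 was Klf1, the factor that drives beta globin. It stood at 1.23, 0.517 and 0.475 CPM in KO-RA and 0.14, 0.319 and 0.401 CPM in KO-O2, with -1.35 ± 0.57 (adjusted p = 0.073). The lowest KO-O2 lung was near the 0.101 CPM that 3 counts give. The highest value belongs to KO-RA replicate 1, the lung with Mpo, where Hemgn was also at 1.67 CPM against 0.279 and 0.260 CPM in the other KO-RA lungs. Without that lung the log2 fold change of Klf1 was -0.78 (adjusted p = 0.36 by edgeR), and its call was also lost without KO-O2 replicate 1 or 2. In WT lungs Klf1 was at 0.14, 0.202 and 0.275 CPM in room air and 0.273, 0.0344 and 0.338 CPM in hyperoxia, with 0.07 ± 0.69 (adjusted p = 0.95). Tal1, which endothelial cells also express, had -0.96 ± 0.09 (adjusted p = 2e-06) in WT and -0.89 ± 0.09 (adjusted p = 4.6e-06) in KO, short of the fold threshold in both. Nfe2 had -0.62 ± 0.15 (adjusted p = 0.0042) in WT and -0.23 ± 0.15 (adjusted p = 0.24) in KO, and Gfi1b, at 0.105 to 0.649 CPM, had -0.13 ± 0.62 (adjusted p = 0.88) and -0.71 ± 0.59 (adjusted p = 0.37). Of 9 genes of red-cell enzymes and maturation, 3 were called lower and 1 higher in WT-O2, and 2 lower in KO-O2, Trim10 and Cldn13. Trim10, which is needed for terminal erythroid differentiation, went from 4.65, 3.72 and 5.49 CPM in KO-RA to 2.76, 2.8 and 0.736 CPM in KO-O2, with -1.14 ± 0.38 (adjusted p = 0.028), and was no longer called without KO-O2 replicate 3, at -0.74. Car2, a carbonic anhydrase that other lung cells also make, had -1.11 ± 0.15 (adjusted p = 7.9e-05) in WT and -0.79 ± 0.15 (adjusted p = 0.0011) in KO. Bpgm, which makes 2,3-bisphosphoglycerate, had -0.75 ± 0.22 (adjusted p = 0.017) in WT and 0.26 ± 0.21 (adjusted p = 0.36) in KO, and its KO-O2 lungs stood at 115, 129 and 67.6 CPM. Prdx2 had -0.12 ± 0.12 (adjusted p = 0.44) in WT, and Pklr, the pyruvate kinase of red cells and liver, was called higher in WT, with 1.21, at 0.117 to 0.576 CPM over all lungs.

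Genes of heme synthesis and iron uptake, which many cell types use, were not called. Of 11 tested genes of heme synthesis beside Alas2, 0 were called by edgeR and 0 by DESeq2 in either genotype. At an unadjusted p under 0.05 there were 5 in each genotype, in WT 3 higher and 2 lower, against 49.3% of all genes in WT and 47.4% in KO. These genes also passed the adjusted p, as did 49.2% of all genes in WT and 46.7% in KO, and missed the fold threshold. Alas1, the housekeeping counterpart of Alas2, stood at 186 ± 30.2 CPM in WT-RA and 244 ± 20.7 CPM in WT-O2 (SD, n = 3), with 0.39 ± 0.12 (adjusted p = 0.016). Alad, Uros and Urod, further enzymes of the path, had log2 fold changes of 0.10, -0.13 and -0.11 in WT. Of 5 genes of iron uptake 0 were called by edgeR and 0 by DESeq2 in either genotype. In each, 1 had an unadjusted p under 0.05, and it also passed the adjusted p and missed the fold threshold. Tfrc, the transferrin receptor, had -0.12, Slc25a37, which brings iron into mitochondria, had -0.03, and Steap3 and Slc11a2 had -0.30 and 0.49. Of the 12 tested genes for clearing hemoglobin and heme, 4 were called higher in WT-O2 and 2 in KO-O2. Hmox1, the heme oxygenase that oxidative stress also induces, stood at 34.6, 42.6 and 46.6 CPM in WT-RA and 87.3, 134 and 180.3 CPM in WT-O2, with 1.70 ± 0.24 (adjusted p = 0.00025), and with 1.69 ± 0.24 (adjusted p = 0.0003) in KO. Hp, haptoglobin, had 1.01 ± 0.13 (adjusted p = 2.2e-05) in WT and 0.62 ± 0.13 (adjusted p = 0.0014) in KO, and Hpx, hemopexin, had 1.01 ± 0.26 (adjusted p = 0.0058) and 1.08 ± 0.25 (adjusted p = 0.0035). Cd163, the receptor for haptoglobin-bound hemoglobin, had 0.89 and -0.38 and was not called. Among the other globins, Hbq1b, a theta globin of the alpha locus, fell in WT with -3.18 ± 0.65 (adjusted p = 0.0014), while its paralog Hbq1a had -0.85 ± 0.74 (adjusted p = 0.38), a split between copies that may share reads. Mb, myoglobin, had -0.41, and Cygb, cytoglobin of fibroblasts, was called higher with 1.01 ± 0.27 (adjusted p = 0.012). Near the fold or p threshold, 1 left-out lung ended the WT call in 1 of 12 fits for Car2, 2 for Hp, 4 for Hpx, 3 for Cygb and 3 for Pklr, and the KO call of Hpx in 2. In lung the embryonic Hbb-y, Hbb-bh1 and Hba-x were at 0 to 0.303 CPM.

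Markers of other cells that use some of the same genes were set beside these changes. The 9 platelet and megakaryocyte markers summed to 34.6 to 41.1 CPM in WT-RA, 34.2 to 35.8 CPM in WT-O2, 35.3 to 48.4 CPM in KO-RA and 25.6 to 41.9 CPM in KO-O2. In either genotype 0 of 9 were called by edgeR and 0 by DESeq2. At an unadjusted p under 0.05 there were 3 in WT and 5 in KO, where 49.3% and 47.4% of all genes were. These also passed the adjusted p, 1 higher and 2 lower in WT and 1 higher and 4 lower in KO, and missed the fold threshold. Of all genes 49.2% in WT and 46.7% in KO passed the adjusted p. Of 7 mast cell markers tested, 5 were called higher and 1 lower in WT-O2. Cma1 went from 0.593, 0.875 and 1.03 CPM to 12.3, 16.8 and 17.7 CPM in WT, while Kit went from 247, 217 and 221 CPM to 19.8, 23.2 and 20.9 CPM. Summed, the mast cell list with Kit went from 284 to 307 CPM in WT-RA to 106 to 142 CPM in WT-O2, and from 242 to 269 CPM in KO-RA to 93.9 to 137 CPM in KO-O2. Gata1, which mast cells also express, fell in WT, as did Kit, which made up most of the sum of the list in WT-RA. Most of the list went the other way. The 5 markers called higher include Cma1, a mast cell protease, and the median log2 fold change of the 7 tested was 2.32. The 8 endothelial markers summed to 4005 to 4383 CPM in WT-RA and 2999 to 3428 CPM in WT-O2, and to 3604 to 3773 CPM in KO-RA and 2782 to 3502 CPM in KO-O2. Of 6 spleen markers, mostly of B cells, 5 were called lower in WT-O2 and 5 in KO-O2, and their sum was 121 to 212 CPM in KO-RA and 36.5 to 51.7 CPM in KO-O2, with all 3 KO-O2 lungs low. The 6 proliferation markers summed to 94.7 to 147 CPM in WT-RA lungs, 141 to 201 CPM in WT-O2, 123 to 166 CPM in KO-RA and 162 to 196 CPM in KO-O2. The 3 KO-O2 lungs had Alb at 78.1, 1.31 and 1.04 CPM and globin sums of 25917, 29505 and 5886 CPM. The part of the other cell types in the changes was not tested.

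Between the hyperoxic lungs of both genotypes, 7 of the 8 members had higher values in all KO-O2 than in all WT-O2 lungs, which did not pass edgeR's test. For these the lowest KO-O2 lung was above the highest WT-O2 lung, replicate 3 included, and Gata1 overlapped. The log2 fold change of KO-O2 against WT-O2 was 2.59 for Hba-a1, 2.57 for Hba-a2, 2.65 for Hbb-bs and 2.68 for Hbb-bt, with standard errors of 0.51 to 0.56. It was 2.79 ± 0.53 (adjusted p = 0.31) for Alas2 and 2.27 ± 0.50 (adjusted p = 0.4) for Slc4a1. For Epb42 it was 1.51 ± 0.36 (adjusted p = 0.36), and for Gata1 0.31 ± 0.45 (adjusted p = 0.96). In edgeR 0 of 8 members were called in this comparison, where 0.0238% of all genes, 4 of 16819, were called. At an unadjusted p under 0.05 there were 7 of 8, against 6.21% of all genes, and non-overlap held for 7 of 8, against 12.1% of all genes. DESeq2 called 7 of 8, with an adjusted p of 3.5e-06 for Hbb-bs and 0.022 for Epb42. Without KO-O2 replicate 3 edgeR also called 7. Hba-a1 stood at 8340, 9739 and 1910 CPM in KO-O2 replicates 1, 2 and 3, against a WT-O2 mean of 1103 CPM. Epb42 stood at 3.09, 2.78 and 0.985 CPM in the same order, against a WT-O2 mean of 0.808 CPM. For these genes KO-O2 replicate 3 thus lay much nearer to WT-O2 than the other KO-O2 lungs did. This comparison shares its samples with both hyperoxia comparisons above.

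The test of whether hyperoxia acted differently in the 2 genotypes, the interaction, gave log2 values of 2.40 ± 0.75 (adjusted p = 0.59) for Hba-a1, 2.45 ± 0.73 (adjusted p = 0.54) for Hbb-bs and 2.52 ± 0.71 (adjusted p = 0.53) for Alas2. For Slc4a1 it gave 1.61 ± 0.67 (adjusted p = 0.71), for Epb42 0.73 ± 0.48 (adjusted p = 0.85) and for Gata1 0.25 ± 0.60 (adjusted p = 0.98). By edgeR 0 of 8 members passed, where 0.00595% of all genes, 1 gene, passed, and 6 of 8 had an unadjusted p under 0.05, against 6.72% of all genes. DESeq2 passed 5 of 8, the 4 globins and Alas2, and edgeR without KO-O2 replicate 3 passed 6. Without KO-O2 replicates 1 and 2 together the value of Slc4a1 was -0.02 and that of Epb42 -0.49. In that fit the log2 fold change of hyperoxia in KO was -1.59 for Hba-a1 and -1.73 for Alas2. In WT, with all lungs in the fit, it was -2.20 and -2.41. A difference between genotypes in the response of these genes therefore depended on the method and on single mice.

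**Figure D3:**
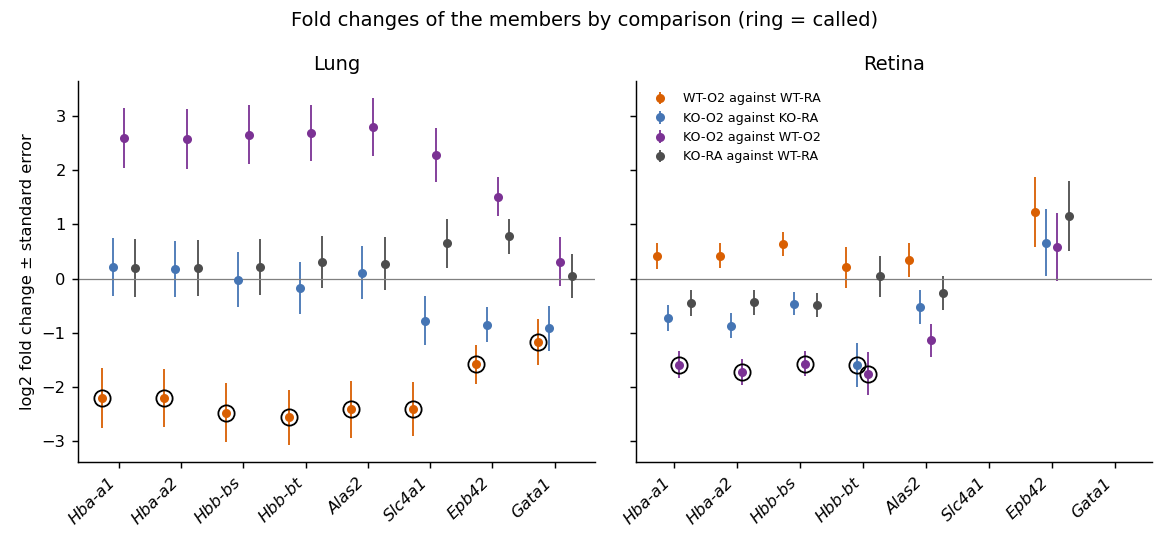
Log2 fold changes of the members with standard errors from edgeR, for 4 comparisons in lung and retina, with a ring around those called. In the lung WT-O2 against WT-RA lies between -2.20 and -2.56 for the globins and KO-O2 against WT-O2 between 2.57 and 2.68 without a ring, and in the retina KO-O2 against WT-O2 is called lower for the 4 globins. Slc4a1 and Gata1 were not tested in the retina.

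In room air the globin levels of the genotypes differed by less than their spread. Hba-a1 had 0.19 ± 0.53 (adjusted p = 0.95) for KO-RA against WT-RA and Alas2 0.27 ± 0.49 (adjusted p = 0.91). Slc4a1 and Epb42 were higher in every KO-RA lung than in every WT-RA lung, at 61.4, 48.6 and 47.8 CPM against 33.6, 24.4 and 42.3 CPM for Slc4a1. Their log2 fold changes were 0.65 ± 0.45 (adjusted p = 0.69) and 0.78 ± 0.32 (adjusted p = 0.4). By edgeR 0 of 8 members were called, 0 by DESeq2, and 1, Epb42, had an unadjusted p under 0.05, against 10.5% of all genes, where 0.137% of all genes were called. The groups did not overlap for 2 of 8 members, against 15.1% of all genes, so their share was close to the background.

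Ratios of counts within a library are free of its depth and scaling. Alas2 kept close to the globins in every lung. There were 12.6, 11.7 and 12 Alas2 counts per 1000 globin counts in WT-RA and 12.4, 9.4 and 12.1 in WT-O2. In KO-RA there were 11.5, 13.3 and 14.6 and in KO-O2 12.5, 12.7 and 12.2. The ratio thus lay between 9.40 and 14.6 in lungs with globin sums from 2876 to 29505 CPM, and all groups overlapped. Slc4a1 counts per Alas2 count were 0.172, 0.133 and 0.197 in WT-RA and 0.194, 0.128 and 0.19 in WT-O2. In KO-RA they were 0.201, 0.21 and 0.264, and in KO-O2 0.125, 0.109 and 0.138. This ratio overlapped between the WT groups and was lower in all KO-O2 lungs, the low one included, than in all KO-RA lungs. The exact permutation test of 3 against 3, two-sided, gave p = 0.1 in KO, the smallest it allows, and p = 1 in WT. An exact permutation of exposure within both genotypes (400 arrangements) gave p = 0.07, and 0.21 after Benjamini-Hochberg adjustment over the 12 ratios examined, 6 per tissue, which were chosen after the values were seen.

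**Figure D4:**
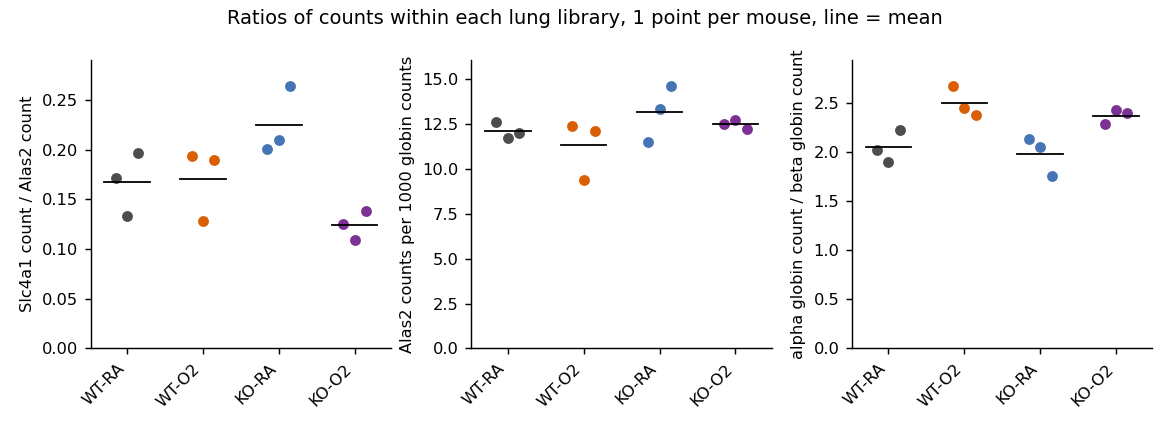
Ratios of counts within each lung library, with 1 point per mouse, a line at the mean of 3 and axes from 0. Alas2 per 1000 globin counts stays between 9.40 and 14.6, Slc4a1 over Alas2 is lowest in KO-O2, and alpha over beta globin is higher in all 6 hyperoxic lungs (2.28 to 2.67) than in all 6 room-air lungs (1.76 to 2.22).

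The balance of alpha and beta globin counts differed with exposure in the lung. Alpha over beta counts, not divided by transcript length, were 2.02, 1.9 and 2.22 in WT-RA and 2.67, 2.45 and 2.38 in WT-O2. They were 2.13, 2.05 and 1.76 in KO-RA and 2.28, 2.43 and 2.4 in KO-O2. All 6 hyperoxic lungs were above all 6 room-air lungs, whatever their globin level, with an exact permutation p of 0.005 over exposure within genotype (two-sided), the smallest that 400 arrangements allow, and of 0.06 after Benjamini-Hochberg adjustment over the 12 ratios. The shares within each pair varied little. Hba-a2 took 53.1% to 54.8% of alpha counts and Hbb-bt 7.77% to 10.5% of beta counts over the 12 lungs.

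Among the genes whose pattern over the 12 lungs was nearest to the precursor genes were, by the mean absolute difference of centred log2 CPM, Rsad2 (0.25), Trim10 (0.25) and Hbq1b (0.34), where the median of 15629 genes was 0.86. The same 3 were among those nearest to the globins, at 0.39 for Rsad2, 0.45 for Trim10 and 0.34 for Hbq1b, where the median was 1.07. Rsad2, an antiviral gene that interferon induces, had means of 14.3, 4.60, 15.5 and 15.7 CPM in WT-RA, WT-O2, KO-RA and KO-O2.

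In the retina, whose table was normalized separately from that of the lung, globin was a smaller part of the library and was lowest in KO-O2. The 4 globins took 0.0383% to 0.170% of the counts. Hba-a1 stood at 326, 289 and 206 CPM in WT-RA and 305, 459 and 326 CPM in WT-O2. In KO it stood at 169, 155 and 276 CPM in room air and 136, 109.9 and 117 CPM after hyperoxia. The WT groups overlapped, while every KO-O2 retina was below every KO-RA and every WT retina. Hba-a2 had 395, 361 and 289 CPM in WT-RA, 366, 608 and 426 CPM in WT-O2, 200.1, 221 and 351 CPM in KO-RA and 153, 146 and 125 CPM in KO-O2. Hbb-bs had 314, 188 and 188 CPM in WT-RA, 291, 448 and 324 CPM in WT-O2, 139, 154 and 200.1 CPM in KO-RA and 129, 107 and 123 CPM in KO-O2. Both were lowest in the 3 KO-O2 retinas. Hbb-bt had 24.6, 15.7 and 10.6 CPM in WT-RA, 15.3, 30.2 and 13.2 CPM in WT-O2, 14.8, 16.2 and 21.5 CPM in KO-RA and 8.2, 5.5 and 3.76 CPM in KO-O2, and was also lowest there.

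**Figure D5:**
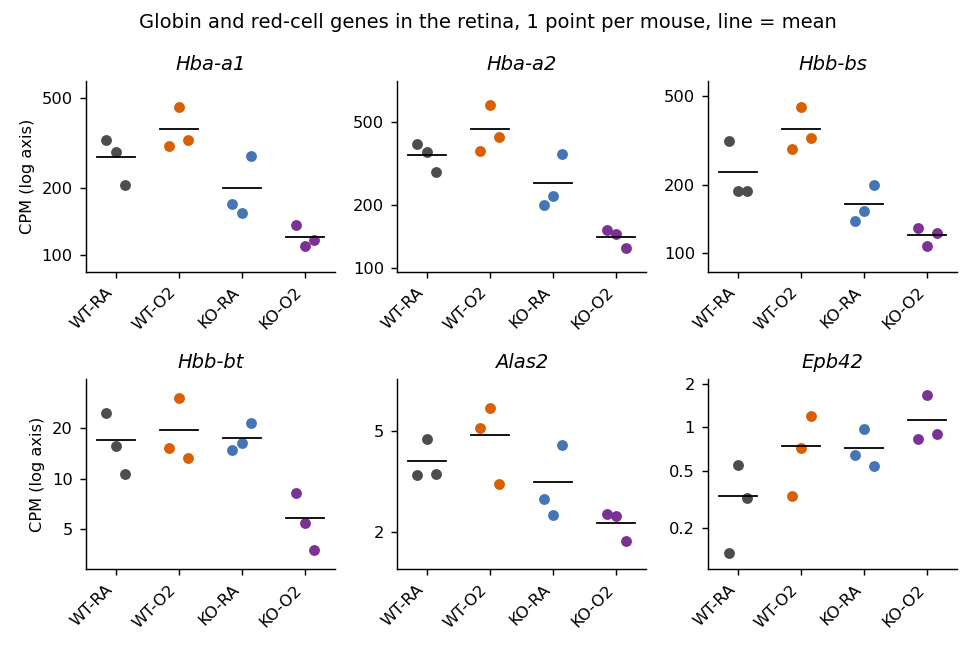
Levels of the 6 genes tested in the retina, in CPM on a log axis that differs between panels, with 1 point per mouse in the order of replicates and a line at the mean of 3. All KO-O2 retinas lie below all other retinas for the 4 globins, and Epb42 does not follow them.

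Between the retinas after hyperoxia, KO-O2 was lower than WT-O2 for all 4 globins. The log2 fold change was -1.59 ± 0.25 (adjusted p = 0.027) for Hba-a1, -1.72 ± 0.24 (adjusted p = 0.021) for Hba-a2, -1.57 ± 0.23 (adjusted p = 0.027) for Hbb-bs and -1.75 ± 0.40 (adjusted p = 0.096) for Hbb-bt. Summed as pairs, alpha globin was 3.17-fold and beta globin 2.98-fold lower. Alas2 stood at 5.11, 6.17 and 3.1 CPM in WT-O2 and 2.36, 2.31 and 1.84 CPM in KO-O2, with -1.14 ± 0.31 (adjusted p = 0.15), not called by edgeR and called by DESeq2 with an adjusted p of 0.034. Epb42 had 0.58 ± 0.62 (adjusted p = 0.79) at around 1 CPM. Thus 4 of the 6 tested members were called, where 0.292% of all 19173 genes were, and the groups did not overlap for 5 of 6, against 19.9%. The call of Hbb-bt was lost in 9 of the 12 fits that left out 1 retina, and those of Hba-a1, Hbb-bs and Hba-a2 in 2, 2 and 1 of 12. Without KO-O2 replicate 2 edgeR called 1 member and without replicate 3 it called 0, while the log2 fold changes of the globins ran from -1.29 to -2.08 over all fits that left out 1 retina. Without the 2 retinas whose Gsdmd level did not match the rest of their genotype it called 0 as well, at -1.56 for Hba-a1 with an adjusted p of 0.2. With a term for Y-linked transcripts 3 were called, all but Hbb-bt.

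Within a genotype fewer members were called. In WT the log2 fold change of hyperoxia was 0.41 ± 0.24 (adjusted p = 0.41) for Hba-a1, 0.42 ± 0.23 (adjusted p = 0.38) for Hba-a2 and 0.63 ± 0.22 (adjusted p = 0.18) for Hbb-bs. For Hbb-bt it was 0.21 and for Alas2 0.34. By edgeR 0 of 6 were called, 0 by DESeq2, with 1 at an unadjusted p under 0.05 (Hbb-bs), against 17.4% of all genes, where 2.04% of all genes were called. Non-overlap held for 0 of 6, against 24.0%. In KO it was -0.72 ± 0.24 (adjusted p = 0.12) for Hba-a1, -0.87 ± 0.23 (adjusted p = 0.065) for Hba-a2, -0.46 ± 0.22 (adjusted p = 0.28) for Hbb-bs and -1.59 ± 0.40 (adjusted p = 0.053) for Hbb-bt. Hbb-bt was the 1 of 6 members called, where 2.19% of all genes were, and its call was lost when it was summed with Hbb-bs, at -0.53 ± 0.23 (adjusted p = 0.22). The groups did not overlap for 4 of 6 in KO, against 26.1%. In room air KO-RA against WT-RA had -0.45 ± 0.24 (adjusted p = 0.46) for Hba-a1 and 0.04 for Hbb-bt. Here 0 of 6 were called by edgeR and 0 by DESeq2, and 0 had an unadjusted p under 0.05, against 12.7% of all genes, where 0.00522% of all genes were called. Non-overlap held for 0 of 6, against 17.8%.

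The interaction in the retina was -1.13 ± 0.34 (adjusted p = 0.28) for Hba-a1, -1.29 ± 0.33 (adjusted p = 0.23) for Hba-a2, -1.08 ± 0.32 (adjusted p = 0.27) for Hbb-bs and -1.80 ± 0.55 (adjusted p = 0.29) for Hbb-bt. By edgeR 0 of 6 members passed, where 0.00522% of all genes passed, and 4 of 6, the globins, had an unadjusted p under 0.05, against 10.6% of all genes. DESeq2 passed these 4.

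The precursor genes were near the limit of detection in the retina. Slc4a1 ran from 0 to 0.378 CPM over the 12 retinas and Gata1 from 0.0668 to 0.497 CPM, where 3 counts correspond to about 0.103 CPM. Alas2 was at 3.34, 4.66 and 3.38 CPM in WT-RA and 2.69, 2.33 and 4.39 CPM in KO-RA, overlapping, and there were 2.84 to 6.27 Alas2 counts per 1000 globin counts, against 9.40 to 14.6 in the lungs. Epb42 had its highest mean in KO-O2, at 0.825, 1.67 and 0.897 CPM, against 0.134, 0.543 and 0.321 CPM in WT-RA, and KO-O2 overlapped WT-O2 and KO-RA but not WT-RA. The regulators Klf1, Tal1 and Gfi1b were at most at 0.967, 1.38 and 0.336 CPM.

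Of 12 tested membrane and cytoskeleton genes in the retina, 0 were called in WT by edgeR and 0 by DESeq2, with 5 at an unadjusted p under 0.05, and 1 in KO, Gypc, which endothelial and other cells also make, at 0.214, 0.473 and 0.457 CPM in KO-RA and 1.96, 1.07 and 1.21 CPM in KO-O2. In WT Gypc had 1.45 ± 0.54 (adjusted p = 0.19). Its call in KO was lost in 10 of the 12 fits that left out 1 retina, and that of Tfr2, an iron uptake gene, in 8 of 12. Of 9 regulators 0 were called in WT by edgeR and 0 by DESeq2, with 3 at an unadjusted p under 0.05, and 1 in KO, Epor, with 1.48 ± 0.29 (adjusted p = 0.021). Of 5 iron uptake genes, Tfr2 was called higher in KO with 1.03 ± 0.32 (adjusted p = 0.099), and Slc25a37 had 0.99 ± 0.20 (adjusted p = 0.027) in WT, short of the fold threshold, and 0.25 ± 0.20 (adjusted p = 0.52) in KO. Of 11 heme synthesis genes, 7 of red-cell enzymes and 10 of heme clearance, 0 were called in either genotype by edgeR. DESeq2 called 1 red-cell enzyme gene in KO and 0 of the others. In the order of these lists, edgeR gave an unadjusted p under 0.05 for 1, 2 and 3 genes in WT and 3, 2 and 1 in KO, where 17.4% of all genes in WT and 20.3% in KO had one. Hmox1 varied widely between retinas of a group, from 2.97 to 204 CPM in KO-RA.

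The 8 endothelial markers summed to 93.8 to 113 CPM in WT-RA, 188 to 216 CPM in WT-O2, 114 to 125 CPM in KO-RA and 156 to 176 CPM in KO-O2. In WT 5 of 8 were called higher. In KO 0 of 8 were called by edgeR and 0 by DESeq2. There 6 had an unadjusted p under 0.05, all 6 higher. These also passed the adjusted p, against 7.82% of all genes, and were short of the fold threshold. The median log2 fold change was 1.06 in WT and 0.83 in KO. Pecam1 went from 11.3, 9.24 and 12.4 CPM to 27.8, 27.2 and 23.2 CPM in WT, with 1.24 ± 0.15 (adjusted p = 0.0018), and had 0.80 ± 0.14 (adjusted p = 0.015) in KO. The 9 platelet and megakaryocyte markers summed to 9.96 to 10.2 CPM in WT-RA, 14.2 to 15.03 CPM in WT-O2, 7.07 to 10.4 CPM in KO-RA and 15.1 to 25.2 CPM in KO-O2, and 2 of the 4 tested were called higher in KO, Itga2b and Gp1ba. The 6 spleen markers, mostly of B cells, summed to 13.6, 23.4 and 8.29 CPM in WT-O2 and 7.47, 4.48 and 5.49 CPM in KO-O2, so the groups did not overlap, as for the globins, and both were highest in WT-O2 replicate 2. In this comparison 0 of the 5 tested were called by edgeR and 0 by DESeq2, 0 had an unadjusted p under 0.05, and the median log2 fold change was -0.97. The parallel did not hold in room air. The spleen markers summed to 3.97, 15.9 and 3.78 CPM in WT-RA and 2.84, 11.0 and 3.18 CPM in KO-RA, highest in replicate 2 of each. The globins summed to 1060, 853 and 693 CPM and to 523, 546 and 849 CPM in these groups, highest in replicates 1 and 3. The 6 proliferation markers summed to 22.6, 17.8 and 29.0 CPM in WT-O2 and 12.6, 8.37 and 7.75 CPM in KO-O2, again without overlap. Of these, 0 of 6 were called by edgeR and 0 by DESeq2, 4 had an unadjusted p under 0.05, against 12.6% of all genes, and the median was -1.40. In room air they summed to 2.37 to 8.97 CPM in WT and 2.88 to 6.13 CPM in KO. The part of vessels, B cells or dividing cells in the globin level was not tested.

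Over the 12 retinas the 5 genes nearest in pattern to the globins were Rsl1 (0.26), Ptpn22 (0.28), Fndc8 (0.30), Hist1h2be (0.30) and Ccr10 (0.31), where the median of 17204 genes was 0.60, and none is a red-cell gene of the lists used. Those nearest to the mean pattern of the 2 tested precursor genes were Il1f9, Zfp169, Gbp5, Gm45925 and Fbxo24, at 0.11 to 0.15, where the median was 0.35. These 2 genes, Alas2 and Epb42, lay on opposite sides between KO-O2 and WT-O2, at -1.14 and 0.58. Nearness to their mean is thus not nearness to either gene.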

How the data were processed

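Whole-tissue RNA from 12 lungs and 12 retinas was sequenced, and the authors deposited expected counts per gene for each tissue, made with kallisto and tximport from 150 bp paired reads. Per the submitters' processing notes FastQC was used and the build was mm10, while the study's methods name GRCm39. In the lung 55.8% and in the retina 2.20% of nonzero values were whole within 0.01, and counts were rounded. Globin copies of a pair share most 31-base words, so their division is an estimate. Groups came from the sample labels, 3 mice each. edgeR 4.0.16 (R 4.3.3) fitted all 12 samples of a tissue together with TMM scaling, filterByExpr, robust quasi-likelihood tests and Benjamini-Hochberg adjustment over all genes. A call needed a 2-fold change with an adjusted p under 0.1 and a raw p under 0.05 (for the interaction, the adjusted p only). Standard errors were taken from the log2 fold change and its F statistic. A floor of 3 counts is 0.101 CPM in lung and 0.103 CPM in retina. The labels do not state separate litters, so p-values measure the spread between these mice. Alternatives were DESeq2 1.42.0, other scaling, filters and samples, and summed copies. Y-linked means over 20 CPM of 4 genes. Scripts were tested on simulated data. Members and lists were chosen with earlier results of these data known. Named genes are the members, the 5 nearest in pattern with a mean of at least 0.5 CPM, and the first 4 tested of each list. Ahsp was not analysed here, and some genes of the lists and of the nearest patterns are left out and not reported here.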

Additional observations from a re-analysis of the deposited data

Results flagged for a closer look

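Between the hyperoxic groups of both genotypes, 5 genes lay on opposite sides in the 2 tissues. Every KO-O2 lung was above every WT-O2 lung, as held for 6.33% of all genes tested in the lung. Every KO-O2 retina was below every WT-O2 retina, as held for 9.79% of all genes tested in the retina. The log2 fold change of KO-O2 against WT-O2 was 2.59 in the lung and -1.59 in the retina for Hba-a1, and 2.57 and -1.72 for Hba-a2. It was 2.65 and -1.57 for Hbb-bs and 2.68 and -1.75 for Hbb-bt. For Alas2 it was 2.79 and -1.14. The difference between the tissues was not tested, since the 2 tables were normalized separately and came from different exposures, ages and mice. In the lung none of the 5 values passed edgeR's adjusted p, and in the retina the 4 globins passed it and Alas2 did not. Without KO-O2 replicate 3 of the retina 0 members were called there.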

How the results depend on the processing

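In WT lungs 7 to 8 members were called when any one sample was left out, and 8 by DESeq2. Scaling with RLE factors and library sizes without the members moved no count of calls by over 1.5 times. With no filter on low counts, or with only the 2 groups compared in the fit, Hbb-bt lost its call between KO-O2 and WT-O2 retinas, at adjusted p-values of 0.14 and 0.16. The counts of calls that moved were these. With DESeq2, 7 members were called between KO-O2 and WT-O2 lungs in place of 0, 5 in place of 0 for the lung interaction and 4 in place of 0 for the retina interaction. For hyperoxia in KO lungs the count of 0 became 7 without KO-O2 replicates 1 and 2 together, 2 with no fold threshold, 1 without KO-O2 replicate 1 and KO-RA replicate 1 together, and 1 with a term for Y-linked transcripts. For hyperoxia in KO retinas the count of 1 became 0 with the globin copies summed, 0 without WT-RA replicate 2 and KO-O2 replicate 3 together, 0 with the Y-linked term and 2 with no fold threshold. Between KO-O2 and WT-O2 retinas the count of 4 became 0 without those 2 retinas. The pairs of libraries that stand apart in other transcripts or in Gsdmd, and the Y-linked term, were chosen after seeing the data. The causes of these shifts were not tested.

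Leaving out 1 sample at a time, the counts ran from 0 to 1 for KO hyperoxia, 0 to 7 for KO-O2 against WT-O2 and 0 to 6 for the interaction in the lung, with the highest count of the last 2 without KO-O2 replicate 3. In the retina they ran from 0 to 1 for KO hyperoxia and from 0 to 4 for KO-O2 against WT-O2.

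Signs turned only among values that had not been called. In KO hyperoxia of the lung, without KO-O2 replicates 1 and 2, Hba-a1 was -1.59, Hba-a2 -1.59 and Alas2 -1.73, and the interaction was -0.02 for Slc4a1 and -0.49 for Epb42. Hbb-bs turned to 0.02 without the libraries holding liver or neutrophil-precursor transcripts and to 0.16 with the Y-linked term. In KO-RA against WT-RA lungs, without the same 2 libraries, Hba-a1 was -0.18, Hba-a2 -0.15, Hbb-bs -0.08 and Gata1 -0.14, and Gata1 was -0.14 with the Y-linked term. In the retina Hbb-bt was -0.44 for KO-RA against WT-RA with its copy summed and -0.01 without WT-RA replicate 2 and KO-O2 replicate 3, and -0.02 for WT hyperoxia with the Y-linked term. Over the fits that left out 1 sample, KO hyperoxia in the lung ran from -0.16 to 0.64 for Hba-a1, -0.18 to 0.61 for Hba-a2, -0.35 to 0.42 for Hbb-bs, -0.53 to 0.24 for Hbb-bt and -0.26 to 0.55 for Alas2. KO-RA against WT-RA ran from -0.18 to 0.44 for Hba-a1, -0.15 to 0.44 for Hba-a2, -0.08 to 0.40 for Hbb-bs and -0.14 to 0.15 for Gata1. Gata1 ran from -0.13 to 0.97 in KO-O2 against WT-O2 and from -0.18 to 0.92 in the interaction. In the retina Hbb-bt ran from -0.25 to 0.57 for WT hyperoxia and from -0.20 to 0.41 for KO-RA against WT-RA.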

Other observations

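In the retina the ratio of alpha to beta globin counts lay on the other side from the lung. It was 2.13, 3.19 and 2.49 in WT-RA, 2.19, 2.23 and 2.23 in WT-O2, 2.4, 2.21 and 2.83 in KO-RA and 2.11, 2.28 and 1.91 in KO-O2. The room-air retinas (2.13 to 3.19) and those after hyperoxia (1.91 to 2.28) overlapped. The exact permutation test of exposure within genotype, two-sided, gave p = 0.04, and 0.16 after Benjamini-Hochberg adjustment over 12 ratios. Hbb-bt made up 7.26, 7.73 and 5.35% of beta counts in WT-RA and 4.99, 6.32 and 3.93% in WT-O2. In KO-RA it was 9.63, 9.55 and 9.69%, a narrow range, and in KO-O2 5.97, 4.89 and 2.97%. The same exact permutation test gave p = 0.01, and 0.06 adjusted in the same way. These values rest on the division of reads between copies that differ at 1 coding base.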
